A study of Mus musculus with 8 samples.

Results

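The 9 genes described here encode regulators of apoptosis: Faim2, Hrk, Bax, Bcl2, Bcl2l1, Bcl2l11, Bbc3, Bid and Mcl1. They were chosen by name from among apoptosis genes, in part because Faim2 was lower and Hrk higher in the same mutant mice that are described below. The difference between mutants and controls is therefore given for these genes as a description. They were part of the fit over all genes, and how many of them passed its threshold is stated, but these counts support nothing and no p is given for them. Of the 9 genes, 8 were analysed, each through a transcript cluster, the unit that sums up the probes along the whole of a gene, that named no other gene. They are 8 of 19928 such genes in all. Bax was not analysed here.

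RNA came from the olfactory mucosa of 4 123Cre:Lhx2(fl/fl) mice, called cKO, and 4 control littermates at postnatal day 3, with 1 GeneChip Mouse Gene ST array per mouse. Controls 1 and 2 were Lhx2(fl/+) and controls 3 and 4 were 123Cre:Lhx2(fl/+). All mice had a mixed 129 x C57BL/6J background and at least 1 floxed Lhx2 allele, and all but controls 1 and 2 carried Cre. The 123Cre transgene starts in immature olfactory sensory neurons (OSNs) and cuts out the start of Lhx2, which encodes a transcription factor of the LIM-homeodomain class, but recombination reaches only a fraction of OSNs and spares the basal cells. By Xist and Y-linked genes, 1 cKO mouse and 2 controls were female. Array medians lay between 8.83 and 8.89 on the log2 scale, and 412 genes were lower and 12 higher in cKO mice at an adjusted p under 0.01 by limma.

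OSNs turn over throughout life and die by apoptosis when they are damaged, aged or deprived of trophic support. Whether a cell dies is decided at the mitochondrion by the BCL2 family, in which prosurvival proteins such as those of Bcl2, Bcl2l1 and Mcl1 hold the pore former Bax in check. BH3-only proteins, among them those of Hrk, Bcl2l11, Bbc3 and Bid, bind the prosurvival proteins and release that check. Faim2, also called lifeguard, is a neuronal membrane protein of the TMBIM family that protects cells from death signalled by the Fas receptor.

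The promoter of Hrk is shown because Hrk was higher in cKO mice and because its window was the only one among those of the measured genes to hold TAATTA, the core letters that many LIM-homeodomain proteins bind. The sequence is from RefSeq, mouse build GRCm38.p6, chr5:118169514-118169763 on the plus strand, and ends at the base before the annotated start of Hrk. Capitals mark TAATTA, which reads the same on both strands and lies 62 to 57 bases before the start.
Hrk: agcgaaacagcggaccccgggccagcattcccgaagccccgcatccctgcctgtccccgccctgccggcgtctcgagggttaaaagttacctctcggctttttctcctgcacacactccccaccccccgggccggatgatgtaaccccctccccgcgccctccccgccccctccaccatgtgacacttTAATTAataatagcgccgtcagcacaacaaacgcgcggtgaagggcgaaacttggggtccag

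The search covered windows of 250 bases before to 50 bases after each start. TAATTA was in 1738 of 32851 such windows (5.29%), and in at least 1 window of 789 of the 15610 tested genes that had one (5.05%). Of the 7 genes described here that had a window, with 12 windows among them, only Hrk held the letters. The table of windows did not give one for Faim2, so its promoter was not searched. A match describes the letters of the window and is not a binding site.

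Faim2 mRNA was lower in cKO mice, and by more than any other gene that does not encode a chemoreceptor. Its log2 values were 10.93, 9.46, 10.59 and 10.86 in cKO mice 1 to 4, against 12.24, 12.27, 12.32 and 12.25 in controls 1 to 4. The 4 controls were nearly identical while the cKO mice were spread out, with cKO mouse 2 by itself at the bottom, and the groups did not overlap. The means were 10.46 ± 0.68 in cKO mice and 12.27 ± 0.03 in controls (SD, n = 4 each). The difference of -1.81 (SE 0.28, 95% interval -2.46 to -1.17) corresponds to 28.5% of the control level on a linear scale, with an interval of 18.2 to 44.5%. In the order of falls, Faim2 came first among 18722 genes without chemoreceptors, of which 103 (0.55%) were called lower. Faim2 was chosen in part for this fall, so the rank is a description and supports nothing.

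Hrk mRNA was higher in cKO mice by a smaller margin. Its log2 values were 11.10, 11.50, 11.26 and 10.98 in cKO mice 1 to 4, against 10.72, 10.74, 10.79 and 10.75 in controls 1 to 4. All cKO values lay above all control values, and cKO mouse 2, the lowest for Faim2, was the highest for Hrk. The means were 11.21 ± 0.23 in cKO mice and 10.75 ± 0.03 in controls (SD, n = 4 each). The difference was 0.46 (SE 0.10, 95% interval 0.23 to 0.69), or 137% of the control level. In the order of rises among the same 18722 genes Hrk ranked 53, and it was chosen in part for this rise. Hrk, also called harakiri, is expressed chiefly in neurons, and in cultured rat sympathetic neurons it is induced when trophic support is withdrawn.

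**Figure D1:**
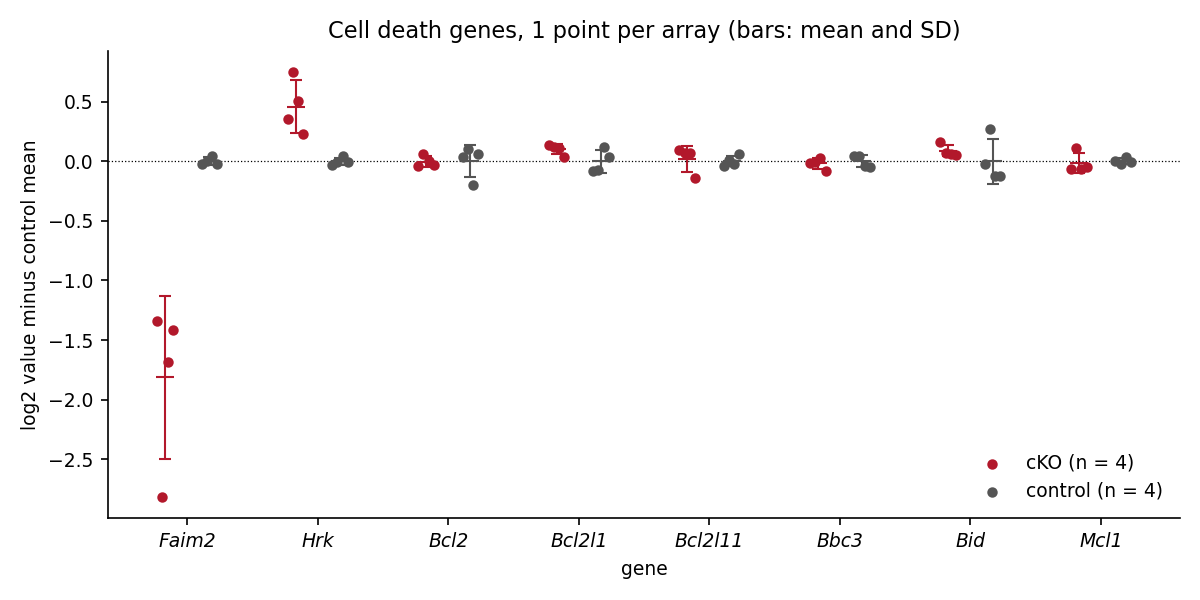
Log2 value minus the control mean (y axis) of the 8 measured genes (x axis), with 1 point per array, cKO in red and control in grey (n = 4 each), and bars for the mean and SD. Faim2 lies between -2.81 and -1.34 and Hrk between 0.23 and 0.75 in the cKO arrays, while for the other 6 genes the points of both groups overlap.

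The other 6 genes overlapped between the groups, and each 95% interval of the difference included 0. Among the prosurvival genes, Bcl2 averaged 11.22 ± 0.04 in cKO mice and 11.23 ± 0.13 in controls (SD, n = 4 each), with a difference of -0.003 (SE 0.07, interval -0.16 to 0.15). Mcl1, which encodes a short-lived prosurvival protein, differed by -0.02 (SE 0.05, interval -0.13 to 0.10). Bcl2l1 encodes Bcl-xL, the main prosurvival protein of many mature neurons. It had log2 values of 11.02, 11.01, 11.00 and 10.92 in cKO mice 1 to 4, against 10.81, 10.81, 11.01 and 10.92 in controls 1 to 4. The cKO values overlapped those of controls 3 and 4, which carry Cre, and lay above those of controls 1 and 2, which do not. The first letter of the sample title separates the same pairs of controls, so Cre and letter cannot be told apart. The difference over all controls was 0.10 (SE 0.06, interval -0.03 to 0.23).

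Among the BH3-only genes other than Hrk, none differed by more than 0.09 on the log2 scale. Bcl2l11, which encodes Bim, an activator of Bax, averaged 9.54 ± 0.11 in cKO mice and 9.52 ± 0.04 in controls, with a difference of 0.02 (SE 0.06, interval -0.11 to 0.16). Bbc3, which encodes the p53 target Puma, averaged 8.05 ± 0.05 in cKO mice and 8.07 ± 0.05 in controls, with a difference of -0.02 (SE 0.05, interval -0.12 to 0.09). Bid, which links death receptors to the mitochondrion once caspase 8 has cut its protein, differed by 0.09 (SE 0.09, interval -0.11 to 0.29). Its range was 8.38 to 8.49 in cKO mice and 8.20 to 8.60 in controls, so that the controls were the more variable group. A difference near 0 does not show that the levels were equal, since any change within these intervals fits the arrays.

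At an adjusted p under 0.01 by limma, 1 of the 8 genes was lower, against 2.07% of all genes tested, and 0 were higher, against 0.0602% (1 in either direction, against 2.13%). At an adjusted p under 0.05, 1 was lower and 1 higher, against 5.17% and 0.366% of all genes. The values that placed Faim2 and Hrk past these thresholds are those by which they were chosen, so nothing is read from these counts. All cKO arrays lay below all control arrays for 1 of the 8 genes (8.43% of all genes), and above for 1 (3.18%). The median difference was 0.01 over the 8 genes and 0.03 over all genes.

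With 1 array left out at a time, the difference of Faim2 ranged over -1.97 to -1.48. It passed the threshold of 0.01 in 2 of 8 such fits, those without cKO mouse 1 and without cKO mouse 2. Hrk ranged over 0.36 to 0.54 and passed in 0 of 8. For both genes the smallest difference was the one without cKO mouse 2 (-1.48 for Faim2 and 0.36 for Hrk).

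Mouse cKO 2 stood apart in other values as well. It is the only cKO mouse whose sample title starts with B, a letter whose meaning is not stated, and the only female among them. Within titles starting with A, Faim2 averaged 10.79 in 3 cKO mice and 12.28 in 2 controls, a difference of -1.49, and the difference was -2.80 within titles starting with B, with 1 cKO mouse and 2 controls. For Hrk the differences were 0.34 within A and 0.77 within B. Female minus male controls (2 mice each) differed by -0.05 for Faim2 and -0.03 for Hrk. With sex in the fit the difference was -1.96 for Faim2 and 0.50 for Hrk.

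Lhx2, the targeted gene, read 13.03, 12.55, 13.01 and 13.02 in cKO mice 1 to 4, against 13.14, 13.09, 13.20 and 13.13 in controls 1 to 4. A transcript cluster sums up probes along the whole gene, so it is not limited to the deleted exons. The Lhx2 difference of -0.24 (SE 0.11) had an adjusted p of 0.337 by limma. Omp, the marker protein of mature OSNs, was lower by a log2 difference of -0.97 (SE 0.14, adjusted p = 0.00605 by limma), with cKO mouse 2 again lowest at 12.00, against 13.39 to 13.49 in controls. Of 20 measured markers of mature OSNs, all 20 were below 0 in their difference and 6 were called lower. Over all 19928 genes, 7503 were below 0 and 2.07% were called lower. Their mean ran from 10.86 to 11.40 on cKO arrays, with cKO mouse 2 at the low end, and from 11.83 to 11.92 on control arrays. In whole mucosa, fewer mature OSNs and less RNA per OSN cannot be told apart.

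**Figure D2:**
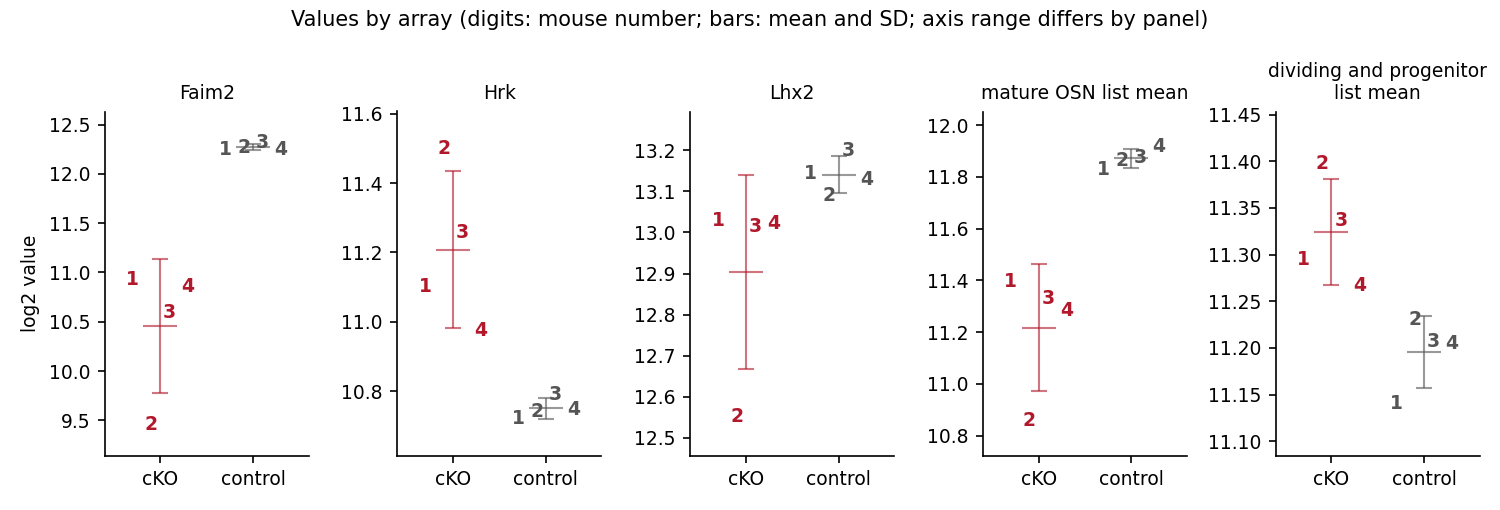
Log2 values (y axis, a different range in each panel) of Faim2, Hrk, Lhx2 and the means of 2 marker lists by group, with digits for the mouse number, and bars for the mean and SD (n = 4 each). Mouse cKO 2 is lowest for Faim2 (9.46), Lhx2 (12.55) and the mature OSN list (10.86), and highest for Hrk (11.50) and the list of dividing and progenitor cells (11.40).

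Because the mature OSN markers moved with the groups, Faim2 and Hrk were also set against the mean of that list on the same array. Faim2 minus the list mean was -0.47, -1.40, -0.74 and -0.43 in cKO mice 1 to 4, against 0.42, 0.41, 0.44 and 0.33 in controls 1 to 4. The groups did not overlap on this scale either, and the difference was -1.16. None of the 20 markers had a larger fall than Faim2, which was chosen in part for its fall. The next was Cnga4 (-1.60), which encodes part of the channel that opens on odor stimulation. The 95% intervals of Faim2 and Cnga4 overlapped, and their difference was not tested. Hrk minus the list mean was higher in cKO mice by 1.11. The list mean itself differed by -0.65, so its subtraction moves every gene up in cKO arrays by construction. On this scale Bcl2 also differed by 0.65.

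**Figure D3:**
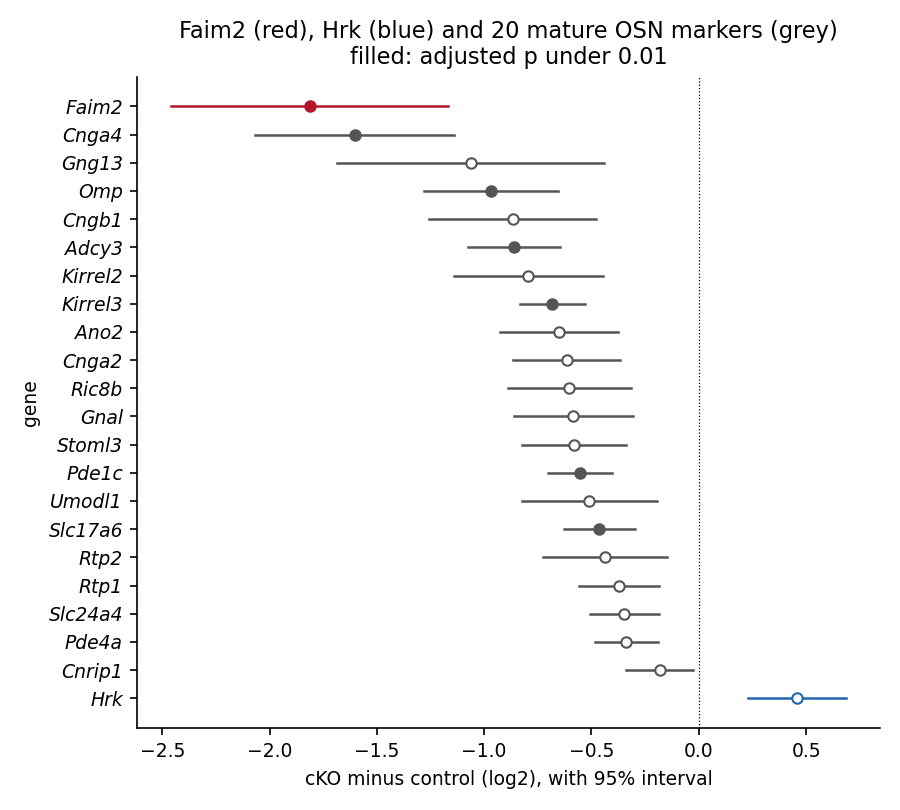
Difference of cKO minus control (x axis, log2) with its 95% interval for Faim2 (red), 20 markers of mature OSNs (grey) and Hrk (blue), 1 gene per line, filled where the adjusted p was under 0.01. Faim2 is at -1.81, the markers lie between -1.60 and -0.18, and Hrk is at 0.46.

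Markers of other cell types differed less. The mean of 11 markers of dividing and progenitor cells ran from 11.27 to 11.40 on cKO arrays, with cKO mouse 2 highest, and from 11.14 to 11.23 on control arrays. All 11 markers were above 0 in their difference, as were 12425 of all 19928 genes, and 0 were called. The mean of 18 markers of immature OSNs ran from 12.13 to 12.27 on cKO arrays and from 12.25 to 12.33 on control arrays. Of these 18, 1 was called lower, against 2.07% of all genes. Macrophage markers, of cells that clear dead OSNs, ran from 8.92 to 8.99 on cKO arrays and from 8.75 to 9.04 on control arrays, with 0 of 13 called. Markers of horizontal basal cells, sustentacular cells and Bowman glands, blood and ensheathing glia overlapped between the groups, with 0 called in each list. The part of these cell types in the values of Faim2 and Hrk was not tested beyond the subtraction of the mature OSN list.

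The 2 control genotypes allowed a comparison that had no part in the choice of genes. It asks whether Cre with 1 floxed allele differs from 1 floxed allele without Cre. Between 123Cre:Lhx2(fl/+) and Lhx2(fl/+) controls (n = 2 each), 0 of the 8 genes and 0 of 19928 genes (0%) were called at an adjusted p under 0.01 by limma, while 2 and 1551 had an unadjusted p under 0.05. The 2 genes were Bcl2l1, at 10.96 in 123Cre:Lhx2(fl/+) and 10.81 in Lhx2(fl/+) controls (difference 0.15, adjusted p = 0.631 by limma), and Bid, at 8.21 in 123Cre:Lhx2(fl/+) and 8.45 in Lhx2(fl/+) controls (difference -0.25, adjusted p = 0.619 by limma). Faim2 differed by 0.03 (SE 0.43, 95% interval -0.97 to 1.02) and Hrk by 0.04 (SE 0.15, interval -0.31 to 0.39). The wide intervals come from a spread pooled over all genotypes, cKO mice included. Genotype and title letter coincide in the controls and cannot be told apart.

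Beyond these genes, 112 others of cell death and survival were listed by role, of which 99 were analysed here. Of the 99, 1 was lower and 0 were higher at an adjusted p under 0.01 by limma (2.07% and 0.0602% of all genes), and 15 had an unadjusted p under 0.05 (15% of all genes). At an adjusted p under 0.05, 4 were lower and 1 higher (5.17% and 0.366%). All cKO arrays lay below all control arrays for 10 of the 99 (8.43% of all genes) and above for 5 (3.18%). Their median difference was 0.02, and differences ran from -0.31 to 0.31.

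**Figure D4:**
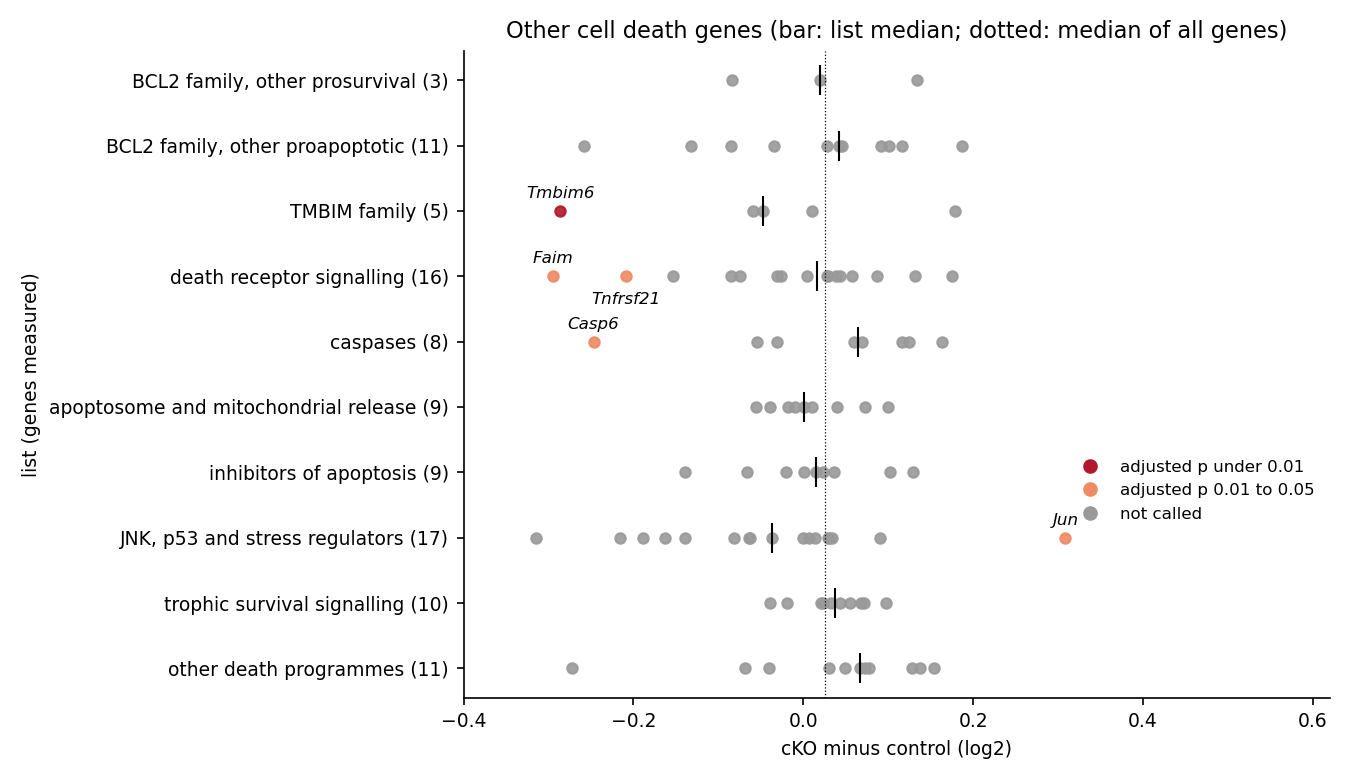
Difference of cKO minus control (x axis, log2) of 99 other cell death genes, 1 point per gene, in 10 lists (y axis, genes measured in brackets). A bar marks each list's median and the dotted line the median of all genes (0.03). Tmbim6 (-0.29) passed an adjusted p of 0.01, and Faim (-0.29), Casp6 (-0.25), Tnfrsf21 (-0.21) and Jun (0.31) passed 0.05 alone.

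In the TMBIM family, to which Faim2 belongs, 1 of 5 other genes was lower, against 2.07% of all genes. Tmbim6 encodes Bax inhibitor 1, a membrane protein of the endoplasmic reticulum that lowers its calcium content. It read 12.70, 12.61, 12.67 and 12.69 in cKO mice 1 to 4, against 12.91, 12.97, 13.03 and 12.91 in controls 1 to 4. The groups did not overlap, and the difference was -0.29 (SE 0.05, adjusted p = 0.00900 by limma), or 82.0% of the control level. The call sat at the threshold, and it was lost in all 8 fits that left out 1 array. The mean of the mature OSN list differed by -0.65, so its subtraction raises every gene in cKO arrays by construction, and with it Tmbim6 was at 0.37. The remaining 4 genes, among them Tmbim1 (0.18, adjusted p = 0.572) and Grina (-0.06, adjusted p = 0.605), were not called by limma.

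Among 16 genes of death receptor signalling, from ligands through receptors to adaptors, 0 were called at 0.01. At 0.05, 2 were lower, against 5.17% of all genes. Tnfrsf21, which encodes death receptor 6, a regulator of axon and neuron loss in development, ranged from 12.09 to 12.18 in cKO mice and from 12.31 to 12.37 in controls (difference -0.21, adjusted p = 0.0181 by limma). Faim, a cytoplasmic inhibitor of Fas signalling that shares a name but no family with Faim2, ranged from 10.21 to 10.46 in cKO mice and from 10.58 to 10.70 in controls (difference -0.29, adjusted p = 0.0270 by limma). The groups were separate for both genes. Fas itself, the receptor that Faim2 counteracts, overlapped between the groups (difference 0.18, adjusted p = 0.269 by limma). Its level was low, at 7.06 in cKO mice and 6.88 in controls, below the lower quartile of gene means (7.52).

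Among the BCL2 family genes beyond those chosen, 0 of 3 prosurvival and 0 of 11 proapoptotic genes were called at either threshold. All cKO arrays lay below all control arrays for 1 of these 14 genes (8.43% of all genes) and above for 3 (3.18%). Bok, which encodes a pore former like Bax, was at 9.40 ± 0.16 in cKO mice and 9.66 ± 0.11 in controls (SD, n = 4 each, difference -0.26, adjusted p = 0.162 by limma). The BH3-only gene Pmaip1, which encodes Noxa, was at 7.50 ± 0.05 in cKO mice and 7.31 ± 0.12 in controls (difference 0.19, adjusted p = 0.186 by limma). The BH3-only gene Bik (0.10, adjusted p = 0.390) and Bcl2l12 (0.13, adjusted p = 0.162) also had every cKO value above every control value without a call by limma. Bcl2l2, which encodes Bcl-w (-0.08), and Bcl2l10 (0.02) overlapped between the groups.

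Downstream of the mitochondrion, 0 of 8 caspases, 0 of 9 genes of the apoptosome and mitochondrial release and 0 of 9 inhibitors of apoptosis were called at 0.01. Casp6, an effector caspase that takes part in axon degeneration, was lower at 0.05. It read 11.84, 11.83, 11.79 and 11.79 in cKO mice 1 to 4, against 12.00, 12.04, 12.05 and 12.14 in controls 1 to 4 (difference -0.25, adjusted p = 0.0140 by limma). The groups were separate, and cKO mouse 2 did not stand apart. The initiator caspase gene Casp2 (0.07) and the inflammatory caspase gene Casp4 (0.16) were not called. Among the caspase substrates and mitochondrial proteins, Parp1 (0.10), Htra2 (0.07) and the nuclease gene Dffb (0.04) were not called, nor was Birc5, which encodes survivin (0.13). The Naip genes are close copies of one another, so the values of Naip5 (-0.14) and Naip6 (0.10) are uncertain.

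Stress signalling upstream of the BH3-only genes was represented by 17 genes, of which 0 were called at 0.01. At 0.05, 1 was higher, against 0.366% of all genes. Jun, which encodes the AP-1 factor that JNK phosphorylates, read 12.38, 12.60, 12.46 and 12.32 in cKO mice 1 to 4, against 12.09, 12.08, 12.15 and 12.21 in controls 1 to 4. The groups were separate and cKO mouse 2 was highest, as for Hrk (difference 0.31, SE 0.07, adjusted p = 0.0284 by limma). Without cKO mouse 2 the difference was 0.26. Map3k12, which encodes the dual leucine zipper kinase upstream of JNK (-0.22, adjusted p = 0.0704 by limma), and Mapk8ip2, which encodes a JNK scaffold (-0.19, adjusted p = 0.0510 by limma), were below controls in every cKO array without a call.

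Trophic signalling showed 0 called among 10 genes at either threshold, with Igf1 (0.10), Igf2 (0.07) and Bdnf (0.07), which encode growth factors, all overlapping between the groups. Other death programmes showed 0 called among 11 genes. The smallest p-values there were those of Gsdme, which encodes a pore-forming gasdermin (0.15, adjusted p = 0.284 by limma), the necroptosis kinase gene Ripk3 (0.14, adjusted p = 0.356 by limma) and Dapk2 (0.13, adjusted p = 0.433 by limma).

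The genes whose values most resembled those of Faim2 over the 8 arrays were all odorant receptor genes. Among 2628 genes with an SD of at least 0.2 over the arrays, Pearson's r with Faim2 was highest for Olfr32 (0.999), Olfr15 (0.999), Olfr937 (0.998), Olfr1006 (0.997) and Olfr1109 (0.997). After the mean of each group was subtracted, the 5 highest were again odorant receptor genes, led by Olfr826 (0.998) and Olfr1168 (0.997). The arrays share 2 groups and, within cKO mice, the low mouse 2, so these values describe a common pattern over few points. The SD over all 8 arrays includes the group difference, so genes that differ between groups pass this filter more readily. Of the 412 genes called lower, 103 encoded no chemoreceptor. The share of receptor genes among the 2628 was not counted, so nothing particular to Faim2 is read from these names. For Hrk the 5 most alike were Clcf1 (0.979), which encodes a neurotrophic cytokine, Dleu7 (0.973), Pde1b (0.971), Tmem255b (0.971) and Rhpn2 (0.970). After subtraction of the group means they were Olfr198 (0.959), Prph (0.952), which encodes the neuronal filament peripherin, Dleu7 (0.946), Pde4c (0.929) and Clcf1 (0.918). This subtraction removes the group difference, and Olfr198 was lower in cKO mice (6.31, against 7.02 in controls), unlike Hrk and the others named. Dleu7 and Clcf1 were on both lists.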

How the data were processed

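The authors deposited 1 log2 value per transcript cluster and array, made with Affymetrix Expression Console per the submitters' processing notes. How the background was corrected, how probes were summarized and whether arrays were normalized was not stated in the sources used here. Precision is limited by having 4 arrays a group, and the SE of a difference had a median of 0.07 over all genes. Of 28312 clusters, 21759 had 1 gene symbol in the platform annotation, 1605 several and 4948 none. Clusters with 1 symbol were kept, with the highest mean for each of 994 genes that had several clusters. This left 19928 genes, named with a RefSeq table (GRCm38.p6, 21668 clusters matched).

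Differences of cKO minus control were fitted with limma 3.58.1 in R 4.3.3 (lmFit, eBayes, two-sided, Benjamini-Hochberg over all genes), with an adjusted p under 0.01 as the call and the script tested on simulated data. The control genotypes were compared in a fit with 3 genotypes. The genes described, and all lists, were chosen with earlier results of these data known. All 9 chosen genes were named, with each list's called genes and up to 3 smallest p-values, the 5 genes most like Faim2 and Hrk, and Lhx2 and Omp. Alternatives were the methods' t-test, a threshold of 0.05, quantile normalization, trended and robust eBayes, centring on genes without chemoreceptors, a filter below the lower quartile of level, title letter and sex as blocks, 1 control genotype at a time, subtraction of the mature OSN list, and leaving out each array. Labels put each mouse in its group but give no litter. The limma p-values set each difference against the spread between these mice, with information on spread shared over genes. They treat the mice as independent, and litter was not in the fit.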

Additional observations from a re-analysis of the deposited data

Results flagged for a closer look

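Of 76 groups of 4 arrays tested for a value far from the other 3 (the 8 genes and the 30 other named cell death genes, in 2 groups), 6 had one, and chance gives about 1 in 20 groups. For Bcl2l11, cKO mouse 4 was at 9.38, against 9.59 to 9.61 in the other cKO mice. For Bid, cKO mouse 1 was at 8.49, against 8.38 to 8.40. Mcl1 was at 11.97 in cKO mouse 2, against 11.80 to 11.81. In the other lists, cKO mouse 2 was at 7.03 for Casp4, against 7.28 to 7.32, cKO mouse 3 was at 8.19 for Dffb, against 8.22 in each of the others, and control 2 was at 10.58 for Faim, against 10.69 to 10.70 in the other controls. Neither Faim2 nor Hrk met this criterion, although cKO mouse 2 was the extreme array for both. The cause of these values was not tested.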

How the results depend on the processing

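Every alternative kept Faim2 lower (-1.97 to -1.16) and Hrk higher (0.36 to 1.11). The ends -1.16 and 1.11 came from subtraction of the mature OSN list mean. The call of Faim2, the 1 lower gene among the 8, was lost with the methods' t-test, with trended and robust eBayes and with either control genotype alone, which each left 0, and leaving out 1 array gave 0 to 1. Among the 8 genes, 1 was higher at an adjusted p under 0.05 and 7 were higher after subtraction of the mature OSN list mean, which by construction moves every gene up in cKO arrays. That subtraction gave 93 higher and 0 lower pathway genes, 18353 higher genes in all, and turned Tmbim6 to 0.37. Of the 99 pathway genes, 4 were lower and 1 higher at 0.05, 3 were lower with trended and robust eBayes, 2 with the title letter as a fixed block, and 0 with the t-test, with quantile normalization, with either control genotype alone and without any 1 array (0 to 0). Over all genes, the 412 lower became 1031 at 0.05, 0 with the t-test, 0 with either control genotype alone and 30 to 657 without 1 array (657 without cKO mouse 2). The 12 higher became 73 at 0.05, 1 with the t-test, 20 after quantile normalization, 0 with either control genotype alone and 0 to 19 without 1 array. Fewer arrays accompany the losses in the fits with 1 control genotype or 1 array less, and for the other settings the cause was not tested. The t-test at an unadjusted p under 0.01 called 10 of the 99. The share of all genes at that setting was not counted, so nothing is read from this number. Among the named genes, the filter on level left out Bcl2l10, Pmaip1, Fas, Casp4, Naip5, Naip6 and Bdnf. Their mean levels lay below the lower quartile of gene means (7.52). The contrast of control genotypes gave 0 calls under each alternative run. No paired analysis was possible because the labels give no replicate numbers or litters that would pair single mice. The title letter, under which both groups occur, could be fitted as a block, and gave differences of -1.96 (fixed) and -1.80 (random) for Faim2 and of 0.49 and 0.46 for Hrk.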

Other observations

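Of the 17 genes of JNK, p53 and stress signalling, 5 had every cKO value below every control value, against 8.43% of all genes tested. Besides Map3k12 and Mapk8ip2 these were Mapk10, Mapk8ip1 and Ddit3, which were picked out after their values were seen. For 1 gene, Jun, every cKO value lay above every control value, against 3.18% of all genes. Trp53 and Cdkn1a, also on this list, were not analysed. Mapk10 encodes the neuronal JNK, and it ranged from 12.52 to 12.65 in cKO mice and from 12.71 to 12.88 in controls (difference -0.16, adjusted p = 0.152 by limma). Mapk8ip1, which encodes a scaffold of the JNK pathway, ranged from 11.66 to 11.78 in cKO mice and from 11.85 to 11.88 in controls (difference -0.14, adjusted p = 0.123 by limma). Ddit3, which encodes the stress factor CHOP, had the largest fall of the 99 genes and ranged from 9.20 to 9.50 in cKO mice and from 9.57 to 9.92 in controls (difference -0.31, adjusted p = 0.107 by limma). None of the 3 passed either threshold.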
